A study of Mus musculus with 2 samples.

Results

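The 9 genes described here encode the receptors, co-receptors and ligands of the vascular endothelial growth factor (VEGF) family in the mouse. They were taken by symbol from the 28692 genes of the count tables: the receptors Flt1, Kdr and Flt4, the neuropilins Nrp1 and Nrp2, and the ligands Vegfa, Vegfb, Vegfc and Pgf. The study examined what loss of folliculin, the product of Flcn, does to the separation of blood and lymphatic vessels. The 2 deposited libraries hold counts of RNA in individual CD31+ cells, which were pulled from the mesentery with magnetic beads at postnatal day 8. One library came from control mice and one from Flcn iΔEC mice (Cdh5-BAC-CreERT2 Flcn flox/flox), in which the Cdh5 promoter drives a tamoxifen-inducible Cre in endothelial cells. Each library held the pooled cells of 3 mice of the C57BL/6 background, and both groups received 40 µg of 4-hydroxytamoxifen under the skin at postnatal days 2, 3.5, 5 and 6.5. The genotype of the control mice is not given in the sources used here. Since each condition is 1 library, the conditions could not be tested against each other, and every 95% interval below covers counting error only.

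The VEGF family acts through receptor tyrosine kinases on the surface of endothelial cells. Kdr (VEGFR2) carries the main growth and survival signal of VEGF-A, Flt1 (VEGFR1) binds VEGF-A, VEGF-B and placental growth factor and often works as a trap for VEGF-A, and Flt4 (VEGFR3) is the receptor of VEGF-C and drives lymphatic growth. Neuropilins hold ligand and receptor together, Nrp1 mostly in arteries and capillaries and Nrp2 in veins and lymphatics, and both also bind semaphorins. Lymphatic endothelium, set up by the transcription factor Prox1, keeps Flt4 and Nrp2, whereas blood endothelium outside sprouting vessels is known to lower Flt4.

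Expression is given as unique molecular identifiers (UMIs, tags of single RNA molecules) of a gene per 1000000 UMIs of the same cells (CPM), from counts summed over the cells of a type in each library. Cells with at least 2 UMIs of Cdh5 (VE-cadherin) numbered 566 among 6814 in the control and 892 among 4459 in the other library, and were clustered without the 9 genes. Clusters were named "-like" from marker lists that hold none of the 9 genes. The lymphatic cells (LEC-like, marked by Prox1, Mmrn1 and Ccl21a) numbered 78 in control and 298 in Flcn iΔEC cells, the lymph node sinus cells (sinus LEC-like, marked by Marco) 18 and 43, and the venous cells (VEC-like, marked by Vwf) 70 and 122. The VEC-like cluster passed 5 of 10 venous markers, and its first leading gene, Aqp1, is on the list of capillary markers. Arterial cells fell into a large artery-like group of 53 and 110 cells led by Gja5, Cytl1 and Gkn3, and a small arterial-like group of 131 and 47 cells led by Cxcl12. The latter passed 9 of 12 arterial markers but held only 33.1 and 46.2 CPM of Gja5, against 665 and 383 CPM in large artery-like cells, and 549 and 162 CPM of the venous marker Aplnr, and it shared the leading genes Igfbp3 and 1810011O10Rik with the capillary-like cluster, so its boundary to the capillary-like cells is not sharp. There were 29 and 17 capillary-like cells, 57 and 74 cells like those of high endothelial venules (HEV-like, marked by Glycam1), and 55 and 60 proliferating cells. Cdh5 lay between 354 and 1272 CPM in these types, leaving out the proliferating cells, a level set in part by the limit on Cdh5, and between 2.3 and 4.7 CPM in T cell-like, B cell-like and NK or innate lymphoid-like cells. Prox1 stood at 728 and 447 CPM in LEC-like cells and at 0 CPM in capillary-like cells.

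The libraries held 64639756 and 60805779 UMIs, with medians of 7283 and 8587 UMIs per cell. Flcn itself had 93 UMIs (9.39 CPM) in the 7 endothelial types of the control and 203 UMIs (9.96 CPM) in those of the Flcn iΔEC library. The kit reads the 3′ end of transcripts and the sources used here do not give the excised part of the gene, so these counts do not check the labels. The pools also differed in sex, with 9 and 63462 UMIs of Xist and 15535 and 17 UMIs of 4 Y-linked genes, so condition, library, pool and sex cannot be told apart in any difference below. Only 6 cell barcodes occurred in both libraries. Most cells were lymphocytes, and free RNA gives some UMIs of endothelial genes in them: Kdr stood at 1.57 and 1.29 CPM and Flt4 at 0.731 and 3.1 CPM in B cell-like cells, which is the background for the levels below. Conversely, 8 B cell markers summed to 213 and 256 CPM in LEC-like cells, against 6883 and 6699 CPM in B cell-like cells.

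Flt1 and Kdr, the receptors of VEGF-A, were highest in capillary-like cells in both libraries. Flt1 reached 1656 (1512 to 1812) CPM in control and 2332 (2131 to 2547) CPM in Flcn iΔEC cells there, and its second level was that of small arterial-like cells with 765 and 572 CPM. VEC-like cells followed with 314 and 289 CPM. LEC-like cells had 38.2 and 32.2 CPM, and 5 of the 78 control cells held 74.6% of these UMIs. Flt1 was 8.24 (6.27 to 11) times higher in VEC-like than in LEC-like control cells and 8.96 (7.79 to 10.3) times in the Flcn iΔEC library. Kdr, in contrast, was shared by blood and lymphatic cells. It stood at 1577 and 1885 CPM in capillary-like cells, at 580.0 and 418 CPM in small arterial-like cells, and at 420.4 and 319.5 CPM in LEC-like cells. Control LEC-like, sinus LEC-like and VEC-like cells did not differ in Kdr beyond counting error. The capillary-like level depends on where the clustering draws this small group: the alternatives put 29 to 174 control and 17 to 69 Flcn iΔEC cells into it, and the log2 ratio of Kdr to VEC-like cells, 2.06 and 3.3 here, went down to 0.47 and 1.05. The lowest Kdr of all 7 types was that of large artery-like cells, with 87.8 and 69.1 CPM, a ratio to small arterial-like cells of 0.151 (0.122 to 0.186) in control and 0.165 (0.138 to 0.197) in Flcn iΔEC cells.

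Flt4 marked the lymphatic types, but not these alone. LEC-like cells had 364 (335 to 395) CPM in control and 390.0 (376 to 404) CPM in Flcn iΔEC cells. Capillary-like cells came next with 124 (87 to 172) and 202 (146 to 272) CPM; in the control this did not differ beyond counting error from sinus LEC-like cells, at 92.7 CPM. VEC-like cells had 18 UMIs in control and 103 UMIs in Flcn iΔEC cells, or 12.4 and 32.7 CPM. The LEC-like level exceeded the VEC-like level by 29.3 (18.4 to 49.9) times in control and 11.9 (9.79 to 14.6) times in Flcn iΔEC cells. Over the pair of types, 6 of 8 members passed a 2-fold ratio with an interval that excludes 1 in control and 6 of 9 in Flcn iΔEC cells, where 15.7% and 17.1% of all genes with at least 50 counts did. Sinus LEC-like cells had 0.255 (0.193 to 0.331) of the LEC-like Flt4 level in control and 0.272 (0.23 to 0.319) in Flcn iΔEC cells, although their Kdr was as high as that of LEC-like cells or higher. In that pair 3 of 7 and 2 of 9 members passed, against 17.9% and 16.1% of all genes. Between capillary-like and VEC-like cells 5 of 6 and 6 of 8 passed, against 16.5% and 16.9%.

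**Figure D1:**
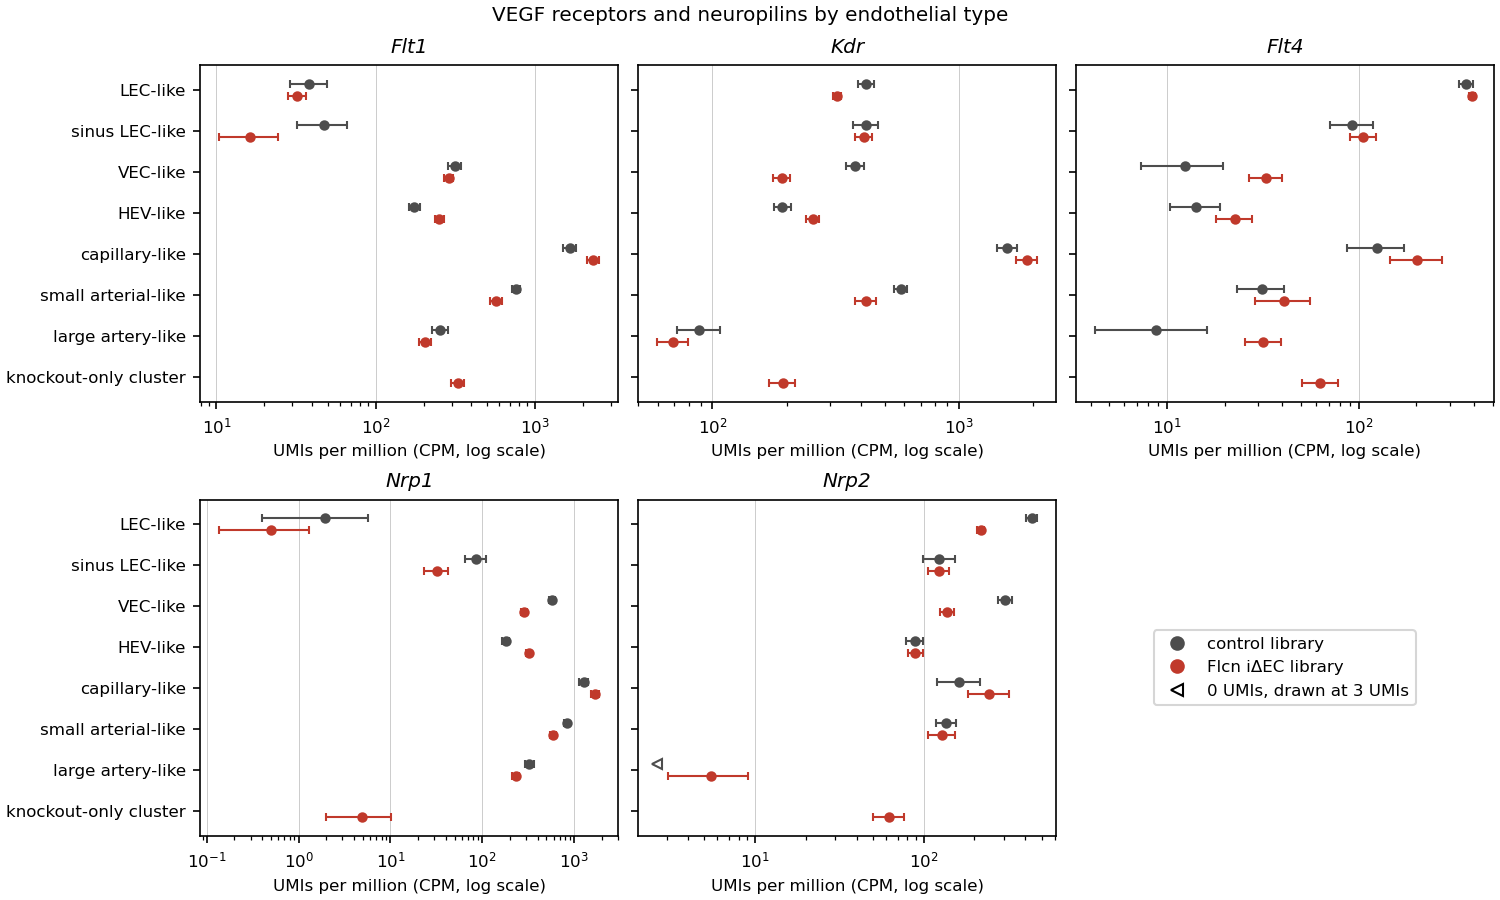
Summed expression of the 3 receptors and both neuropilins in each endothelial type (rows), in CPM on a log axis, for the control (grey) and Flcn iΔEC (red) libraries. Bars are exact 95% Poisson intervals (counting error only) and an open triangle marks 0 UMIs, drawn at the level of 3 UMIs. Flt4 peaks in LEC-like cells, Flt1, Kdr and Nrp1 in capillary-like cells, and Nrp1 is nearly missing from LEC-like cells and the knockout-only cluster.

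Of the neuropilins, Nrp1 was nearly missing from LEC-like cells and Nrp2 from large artery-like cells. Nrp1 had 3 UMIs in control and 4 in Flcn iΔEC LEC-like cells, 1.94 and 0.505 CPM, against 1.24 and 0.516 CPM in B cell-like cells, which is within counting error. It stood at 1267 and 1697 CPM in capillary-like cells and at 828 and 590.0 CPM in small arterial-like cells. Large artery-like cells had 327 and 230.3 CPM. In the control Nrp2 was highest in LEC-like cells with 436 (404 to 470.1) CPM. In the Flcn iΔEC library capillary-like cells had 244 (183 to 321) CPM and LEC-like cells 217 (207 to 228) CPM, which did not differ beyond counting error. Large artery-like cells had no UMI of Nrp2 among 1139168 in the control (a limit of 2.63 CPM at 3 counts) and 15 UMIs (5.48 CPM) in the Flcn iΔEC library, all of them in 2 of the 110 cells. Small arterial-like cells, by contrast, held 136 and 129 CPM. Between large artery-like and small arterial-like cells 7 of 8 members in control and 6 of 9 in Flcn iΔEC cells passed the 2-fold ratio, against 16.7% and 14.4% of all genes.

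Of the UMIs of both neuropilins, the share of Nrp2 does not depend on the scaling. It was 99.6% (98.7 to 99.9) in control LEC-like cells and 99.8% (99.4 to 99.9) in those of the Flcn iΔEC library. In sinus LEC-like cells 59.2% (50.6 to 67.3) and 79.4% (73.5 to 84.4) came from Nrp2, but 5 cells held 96.6% and 91.5% of the Nrp1 UMIs behind these shares. In VEC-like cells the share was 34.6% (32 to 37.3) and 32.6% (30.1 to 35.2), with overlapping intervals. In HEV-like cells it was 33% (29.9 to 36.3) and 21.9% (19.9 to 24), with separate intervals. Of the UMIs of the 3 receptors, Flt4 took 44.3% (41.5 to 47) and 52.6% (51.3 to 53.9) in LEC-like cells, 1.76% (1.04 to 2.76) and 6.39% (5.25 to 7.7) in VEC-like cells, and 2.5% (1.21 to 4.55) and 10.4% (8.43 to 12.7) in large artery-like cells. The Flcn iΔEC share was the higher one in all 7 types, and the intervals were apart in LEC-like, VEC-like and large artery-like cells.

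**Figure D2:**
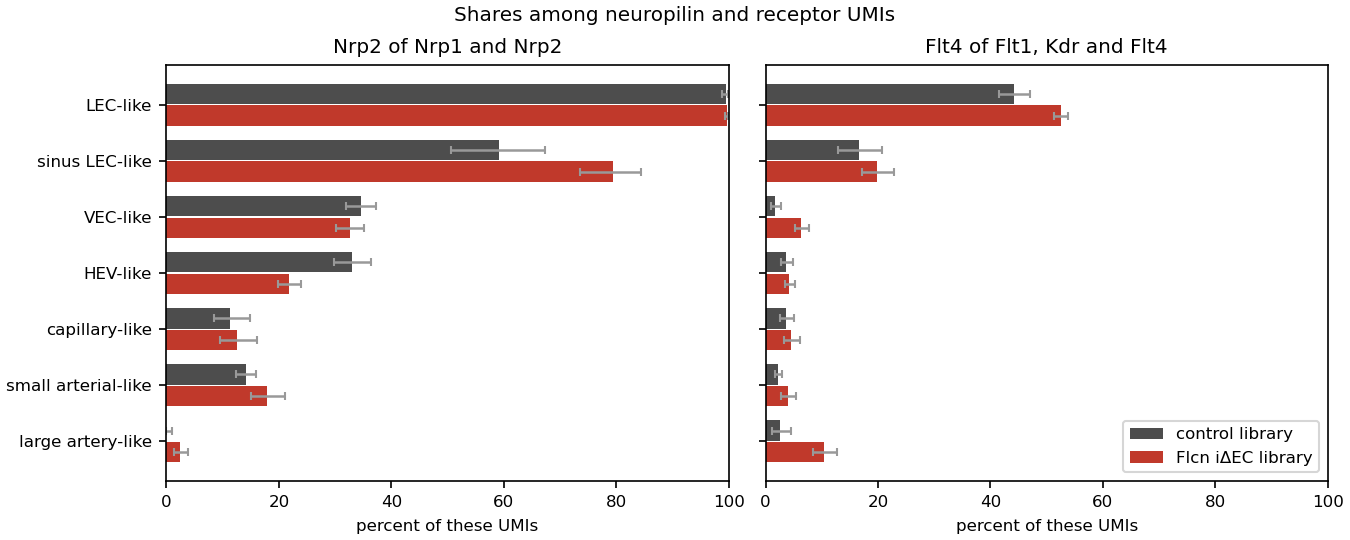
Percent of neuropilin UMIs that came from Nrp2 (left) and percent of receptor UMIs that came from Flt4 (right) in each endothelial type, for the control (grey) and Flcn iΔEC (red) libraries. Bars start at 0 and whiskers are exact 95% binomial intervals (counting error only). Nearly all neuropilin UMIs of LEC-like cells come from Nrp2, and the Flt4 share of VEC-like cells is 1.76% in control and 6.39% in Flcn iΔEC cells.

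Among the ligands, Vegfc, the lymphangiogenic factor, was highest in large artery-like cells in both libraries. Large artery-like cells had 386 (351 to 424) CPM in control and 222 (204 to 239.9) CPM in Flcn iΔEC cells, small arterial-like cells 151 and 108 CPM, VEC-like cells 125 and 45.1 CPM and capillary-like cells 44.9 and 84.6 CPM. Control small arterial-like and VEC-like cells did not differ beyond counting error, nor did Flcn iΔEC small arterial-like and capillary-like cells. LEC-like cells, which carry its receptor, had 2 and 47 UMIs (1.29 and 5.93 CPM). The large artery-like level was 3.08 (2.58 to 3.68) times the VEC-like level in control and 4.91 (4.08 to 5.94) times in Flcn iΔEC cells. In that pair 4 of 6 and 5 of 9 members passed, against 14% and 12.8% of all genes. Outside the endothelium fibroblast-like cells had 25.1 and 24.5 CPM from 11 and 12 UMIs, and T and B cell-like cells less than 1 CPM.

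HEV-like cells, those of venules specialised for lymphocyte entry, were compared with VEC-like cells. In the control Nrp1 and Nrp2 had 0.312 (0.28 to 0.348) and 0.291 (0.25 to 0.339) of the VEC-like level, and among Flcn iΔEC cells 1.12 (1.03 to 1.22) and 0.648 (0.562 to 0.748). Vegfc was lower in HEV-like cells of both libraries, at 0.0453 (0.0262 to 0.0736) and 0.2 (0.135 to 0.29). The members that passed were 5 of 8 and 3 of 9, against 25.5% and 22.2% of all genes.

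Vegfa, the main angiogenic ligand, was low in endothelium. Its highest endothelial level was that of large artery-like cells, 73.7 (58.8 to 91.3) CPM in control and 68.4 (58.9 to 78.9) CPM in Flcn iΔEC cells. Sinus LEC-like cells, at 48.6 (33.4 to 68.2) and 52.3 (41.3 to 65.4) CPM, did not differ from these beyond counting error. Capillary-like cells, which carry the most Kdr, had 1 UMI of Vegfa in each library, or 3.45 (0.0874 to 19.2) and 4.7 (0.119 to 26.2) CPM. That did not differ beyond counting error from VEC-like cells, at 12.4 and 9.53 CPM. Cells outside the endothelium held it too, among them B cell-like cells at 9.39 and 23.6 CPM. The NK or innate lymphoid-like cluster led by Ttn, with Il22 among its leading genes, had 79.1 (68.5 to 90.9) CPM in control and 145 (129 to 163) CPM in Flcn iΔEC cells. A cluster with insulin (Ins2) among its leading genes, of 31 control and 4 Flcn iΔEC cells, had 155 and 95.3 CPM, and an epithelial-like cluster led by Fabp1 38.8 and 28.4 CPM. Nrp1 was likewise found outside the endothelium, at 295 and 530.1 CPM in fibroblast-like cells (which also carried smooth muscle markers), at 81.7 and 77.2 CPM in the T cell-like cluster led by Tnfrsf4 and Ctla4 with Foxp3 among its leading genes, and at 103 and 67.6 CPM in the lymphoid cluster led by Ttn.

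Vegfb, a ligand of Flt1, and Pgf (placental growth factor), another, were the members called higher in most types, as described below. In the control Vegfb was highest in LEC-like cells with 81.5 (67.9 to 97) CPM, at 40.1 CPM in HEV-like cells and between 13.8 and 21.4 CPM in VEC-like, capillary-like, large artery-like and small arterial-like cells, which did not differ beyond counting error. Pgf was low in the control, from 0 UMIs in capillary-like cells to 22 UMIs (15.2 (9.51 to 23) CPM) in VEC-like cells.

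**Figure D3:**
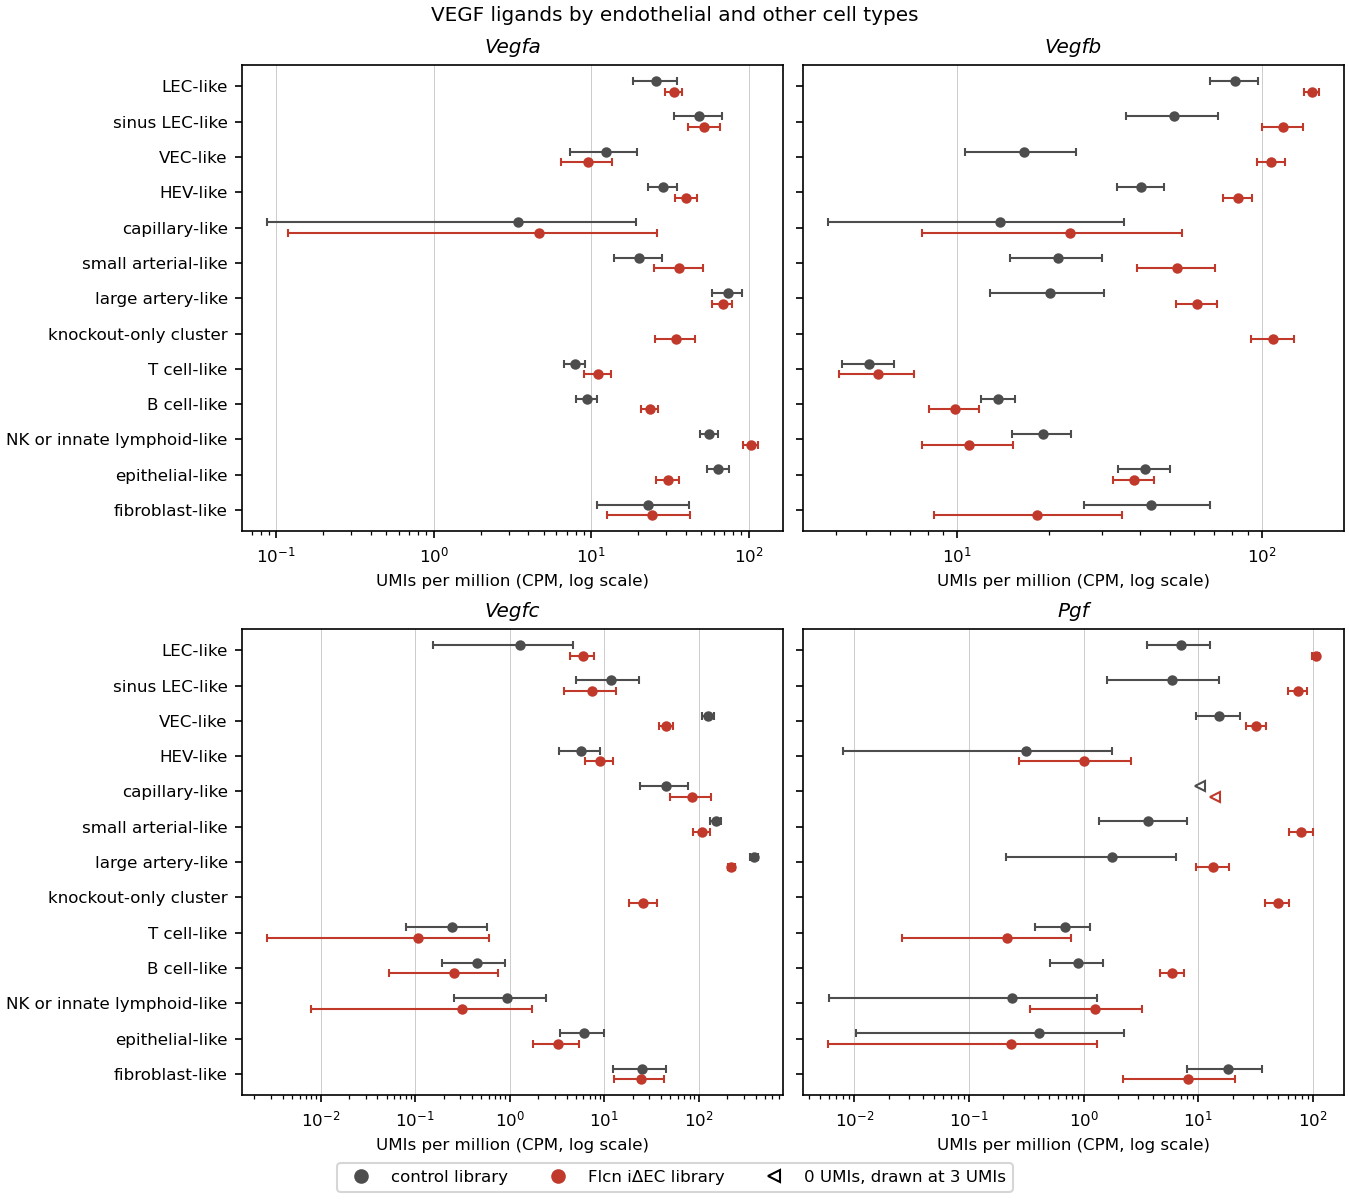
Summed expression of the 4 ligands in endothelial and other cell types (rows), in CPM on a log axis, for the control (grey) and Flcn iΔEC (red) libraries. Bars are exact 95% Poisson intervals (counting error only) and open triangles mark 0 UMIs, drawn at the level of 3 UMIs. Vegfc is highest in large artery-like cells, Vegfb and Pgf lie further right in the Flcn iΔEC library in most endothelial types, T cell-like cells show no such shift, and Pgf also lies further right in B cell-like cells.

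The libraries were compared within each type for every gene with at least 50 counts over both, and a gene was called when its CPM differed at least 2-fold with a 95% interval of the ratio that excludes 1. Of the 63 combinations of 9 members and 7 endothelial types, 52 reached the count minimum, 11 were called higher and 6 lower in the Flcn iΔEC library, and 35 were neither. By type, 6 of 8 members were called in VEC-like cells, where 8.18% of all tested genes were. The count was 4 of 8 in sinus LEC-like cells (8.15% of all genes), 2 of 7 in LEC-like cells (10.2%), 2 of 7 in large artery-like cells (5.46%), 2 of 9 in small arterial-like cells (6.55%), 1 of 8 in HEV-like cells (4.41%) and 0 of 5 in capillary-like cells (7.89%). Split by direction, the genes called higher and lower were 3.66% and 4.52% in VEC-like, 3.72% and 4.43% in sinus LEC-like, 3.9% and 6.3% in LEC-like, 2.85% and 2.61% in large artery-like, 2.35% and 4.2% in small arterial-like, 2.72% and 1.69% in HEV-like and 4.45% and 3.44% in capillary-like cells. The median log2 ratio of all tested genes lay between −0.18 in LEC-like and 0.012 in HEV-like cells, so LEC-like ratios stand against a general shift of that size. No gene was tested over replicates, and the counts describe these 2 libraries. The count minimum is on the sum of both, so a gene low in the control can reach it through the Flcn iΔEC counts alone.

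Flt4 was higher in the Flcn iΔEC library by its value in all 7 types. It was called in VEC-like cells, with a ratio of 2.64 (1.59 to 4.62), and in large artery-like cells, where 10 control UMIs stood against 87 and the ratio was 3.62 (1.88 to 7.82), though as a mean over cells its log2 value was 0.87. VEC-like and large artery-like cells, with 18 and 10 control UMIs, both reached the count minimum for it through the Flcn iΔEC UMIs. In LEC-like cells, where the receptor is most abundant, the ratio was 1.07 (0.979 to 1.17). B cell-like cells, the background, also had more Flt4 in the Flcn iΔEC library, at 0.731 and 3.1 CPM. Kdr was called in no type. Its ratio was 0.503 (0.448 to 0.566) in VEC-like cells, just short of the 2-fold limit, 0.76 (0.697 to 0.83) in LEC-like cells, 0.721 (0.638 to 0.813) in small arterial-like cells and 1.33 (1.2 to 1.47) in HEV-like cells. The direction turned in small arterial-like cells with at least 4 Cdh5 UMIs (log2 ratio 0.15) and in HEV-like cells without integration (−0.057). Flt1 differed little in VEC-like cells, with a ratio of 0.918 (0.819 to 1.03), and was called lower in sinus LEC-like cells with 0.346 (0.195 to 0.607). That call rests on few cells: 5 cells held all of the 32 control UMIs and 95.8% of the 24 Flcn iΔEC UMIs. Markers of natural killer and innate lymphoid cells summed to 963 and 416 CPM over all sinus LEC-like cells. The part of such markers in the Flt1 result was not tested.

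Both neuropilins were lower in Flcn iΔEC VEC-like cells. Nrp1 went from 574 to 285 CPM, a ratio of 0.497 (0.452 to 0.547), and Nrp2 from 303 to 138 CPM, a ratio of 0.455 (0.397 to 0.52). Both were lower under every alternative, but they stayed past 2-fold in 6 of 10 alternatives for Nrp1 and 8 of 10 for Nrp2. After thinning each cell to 2000 UMIs, the VEC-like cells with a UMI of Nrp1 were 65.7% (53.4 to 76.7) in control and 44.6% (35.6 to 53.9) in Flcn iΔEC cells, against 0.29% (0.117 to 0.596) and 0.146% (0.0177 to 0.528) of B cell-like cells. The unthinned shares of VEC-like cells were 94.3% and 91%, at median depths of 15574 and 19666 UMIs. In LEC-like cells Nrp2 went from 436 to 217 CPM, a ratio of 0.498 (0.456 to 0.546) that stayed past 2-fold in 6 of 11 alternatives. In sinus LEC-like cells Nrp1 had a ratio of 0.374 (0.249 to 0.559), which also rests on few cells, not shown to be the same as those with Flt1. HEV-like cells went the other way for Nrp1, from 179 to 319 CPM, a ratio of 1.78 (1.61 to 1.97) that stayed under 2-fold, with Nrp2 level at 1.01 (0.863 to 1.19). The difference between types in these ratios was not tested.

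Vegfb was called higher in 5 of the 6 types that reached the count minimum, while 2.35% (small arterial-like) to 3.9% (LEC-like) of all genes were called higher in these types. VEC-like, large artery-like and sinus LEC-like cells, with 24, 23 and 35 control UMIs, reached the minimum through the Flcn iΔEC UMIs. The number of types called is thus set in part by that minimum. VEC-like cells showed the largest ratio, from 24 UMIs (16.5 CPM) in 70 control cells to 338 UMIs (107 CPM) in 122 Flcn iΔEC cells, or 6.49 (4.29 to 10.3). The ratio was 3.04 (1.96 to 4.93) in large artery-like, 2.46 (1.56 to 3.93) in small arterial-like, 2.28 (1.58 to 3.38) in sinus LEC-like and 2.09 (1.7 to 2.58) in HEV-like cells, and 1.79 (1.49 to 2.17) in LEC-like cells, which had the highest control level. The call was lost in small arterial-like cells under limits on depth and mitochondrial share (log2 ratio 0.70) and in sinus LEC-like cells with at least 1 Cdh5 UMI (0.98). Of the classes outside the endothelium, 3 were compared. The ratio was 0.575 (0.375 to 0.865) in NK or innate lymphoid-like, 1.07 (0.749 to 1.51) in T cell-like and 0.717 (0.569 to 0.9) in B cell-like cells, at 5.13 and 5.48 CPM in T cell-like and 13.7 and 9.8 CPM in B cell-like cells. At 2000 UMIs per cell the share of VEC-like cells with a UMI was 4.29% (0.893 to 12) in control and 19% (12.4 to 27.1) in Flcn iΔEC cells, and unthinned 30% and 81.1%.

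The stretch before the start site of Vegfb is shown, a choice made after its values were seen. Factors of the TFE and MITF family, which folliculin restrains, are known to bind E-boxes such as CACGTG and CACATG. In the RefSeq window of Vegfb (GRCm38.p6, from 250 bases before to 50 after the start) CACATG occurs on the gene's own strand at position −69, and the GC-box letters GGGCGG or their reverse complement CCGCCC occur 4 times. The 250 bases before the start, at chr19:6987652-6987901 on the minus strand and clear of annotated exons, read as follows with these motifs in capitals.
Vegfb: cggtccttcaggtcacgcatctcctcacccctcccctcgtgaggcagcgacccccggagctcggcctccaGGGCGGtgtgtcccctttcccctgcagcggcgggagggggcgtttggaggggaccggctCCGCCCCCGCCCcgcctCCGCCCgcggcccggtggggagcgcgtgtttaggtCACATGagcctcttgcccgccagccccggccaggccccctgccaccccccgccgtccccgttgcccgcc
The letters CACGTG were in 0 of the 11 windows of the 9 members (Vegfa and Pgf have 2 each) and in 7.15% of all 32851 windows. CACATG or its reverse complement CATGTG was in 2 member windows, those of Vegfb and Nrp2 (position 28, after the start), and in 14.2% of all windows, and GGGCGG or CCGCCC was in 10 of the 11 member windows and in 35.7% of all. No occurrences overlapped, and 2 of the GC boxes of Vegfb adjoin each other. A match of letters shows no binding, and the second Pgf window held none of the 3 motifs. Whether these factors have a part in the level of any member was not tested.

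Pgf, which binds Flt1 alone among the receptors, was called higher in all 4 types that reached the count minimum. The control held 11 (LEC-like), 4 (sinus LEC-like), 22 (VEC-like) and 6 (small arterial-like) UMIs, and in each type the Flcn iΔEC UMIs alone passed the minimum. The number of types called is thus set in part by that minimum. LEC-like cells went from 11 UMIs (7.11 (3.55 to 12.7) CPM) to 838 UMIs (106 (98.8 to 113) CPM), a ratio of 14.9 (8.27 to 29.9), or a log2 ratio of 3.89 that was 2.64 without integration. In small arterial-like cells 6 UMIs stood against 72, a ratio of 21.6 (9.44 to 60.7), but 5 cells held 80.6% of the latter, and its log2 ratio of 4.43 was 2.57 to 3.11 under 4 alternatives. The ratio was 12.6 (4.77 to 47) in sinus LEC-like cells, where 5 of 43 cells held 75.2% of the UMIs, and 2.12 (1.32 to 3.52) in VEC-like cells. Capillary-like cells had 0 UMIs in both libraries and HEV-like cells 1 and 4, so no difference was detectable there. Large artery-like cells, under the count minimum, had 2 and 37 UMIs (1.76 and 13.5 CPM). The share of LEC-like cells with a UMI at 2000 UMIs per cell was 0% (0 to 4.62) in control and 14.8% (10.9 to 19.3) in Flcn iΔEC cells, and unthinned 11.5% and 64.1% at median depths of 14607 and 23372 UMIs. In B cell-like cells, which serve as background, Pgf was also higher in the Flcn iΔEC library, at 0.9 and 5.93 CPM with a ratio of 6.59 (3.79 to 12.2), larger than that of VEC-like cells, as was Vegfa at 9.39 and 23.6 CPM with a ratio of 2.51 (2.06 to 3.06). There 2 of 3 members were called, both higher, against 2.58% of all genes (1.43% higher, 1.16% lower). Among T cell-like and NK or innate lymphoid-like cells 0 of 3 members each were called (2.01% and 1.84% of all genes, of which 1.03% and 0.789% higher and 0.98% and 1.05% lower).

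Vegfc was lower in VEC-like cells, where it went from 182 UMIs (125 CPM) to 142 UMIs (45.1 CPM), a called ratio of 0.359 (0.287 to 0.45), although 5 cells held 40.7% of the control UMIs and the log2 ratio was −0.99 without integration, short of 2-fold. In large artery-like cells the ratio was 0.574 (0.506 to 0.65) and in small arterial-like cells 0.716 (0.561 to 0.908), neither past 2-fold. Vegfa was called in none of the 7 types. Its ratio was 0.927 (0.713 to 1.21) in large artery-like, 1.4 (1.08 to 1.84) in HEV-like 1.3 (0.928 to 1.86) in LEC-like and 1.8 (1.08 to 3) in small arterial-like cells, and in NK or innate lymphoid-like cells 1.84 (1.55 to 2.18).

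**Figure D4:**
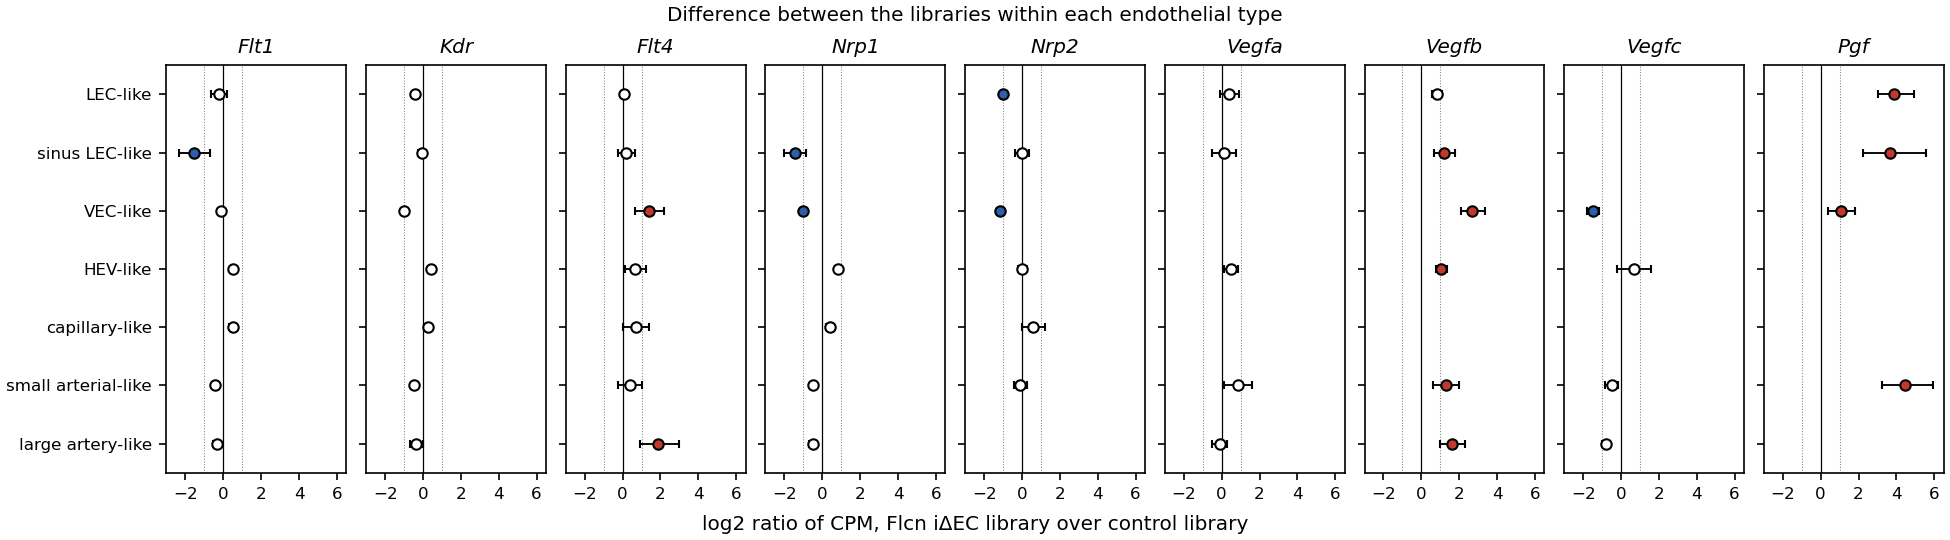
Log2 ratio of CPM, Flcn iΔEC over control library, for each member (panels) in each endothelial type (rows) with at least 50 counts. Bars are exact 95% conditional intervals (counting error only), dotted lines mark 2-fold, filled points are called higher (red) or lower (blue). Red points gather under Vegfb and Pgf, and VEC-like cells hold 3 red and 3 blue points.

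The LEC-like cells consisted of 3 clusters that used the family differently. The Lyve1-high cluster (14 control and 21 Flcn iΔEC cells), with Reln, Ptx3 and Ccl21a among its leading genes, as lymphatic capillaries have, carried 783 (673 to 905) and 709.6 (640.1 to 785) CPM of Flt4, the highest of any group in each library, and 808 and 493 CPM of Nrp2. The Cldn11-high cluster (21 and 122 cells), whose namesake is a junction gene of collecting vessels and valves, had 174 and 245 CPM of Flt4 and 122 and 78.6 CPM of Nrp2. Nrp2 was 6.63 (4.87 to 9.14) times higher in the Lyve1-high than in the Cldn11-high cluster in control and 6.27 (5.25 to 7.5) times in Flcn iΔEC cells, and Flt4 4.5 (3.43 to 5.95) and 2.89 (2.55 to 3.27) times. Flt1 went the other way, with 0 and 3 UMIs in the Lyve1-high and 46 and 190 UMIs in the Cldn11-high cluster. In this pair 2 of 4 and 4 of 7 members passed the 2-fold ratio, against 14.7% and 13.6% of all genes.

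The clusters were present in unequal proportions in the libraries, so each was also compared on its own. Pgf was called higher in each of the 3, at 30.1 and 435 CPM in the Lyve1-high, 2.26 and 119 CPM in the Cldn11-high and 3.44 and 54.8 CPM in the remaining cluster, with control counts of 7, 1 and 3 UMIs. Each cluster reached the count minimum for it through the Flcn iΔEC UMIs. Nrp2 was lower in each, with ratios of 0.61 (0.504 to 0.739), 0.644 (0.478 to 0.882) and 0.573 (0.513 to 0.64), none of which passed 2-fold. With the clusters at equal weights in both libraries, a calculation added after the values were seen, its log2 ratio was −0.76 in place of −1.0. Flt4, at a ratio near 1 over all LEC-like cells, was 1.31 (1.16 to 1.48) in the remaining and 1.41 (1.12 to 1.81) in the Cldn11-high cluster and 0.907 (0.758 to 1.09) in the Lyve1-high one. Vegfa was called higher in the Cldn11-high cluster, from 10 to 167 UMIs, a ratio of 2.37 (1.26 to 5.04), while it was 0.559 (0.356 to 0.904) in the remaining cluster, from 27 to 74 UMIs. The members called were 1 of 5 in the Lyve1-high, 2 of 7 in the Cldn11-high and 1 of 7 in the remaining cluster, against 9.08%, 11.9% and 10.8% of all genes (4.95%, 5.25% and 4.5% higher and 4.13%, 6.69% and 6.28% lower).

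VEC-like cells of the Flcn iΔEC library held 154 CPM of Prox1 against 49 CPM in the control, so they were divided by their Prox1 UMIs, a split chosen after the values were seen. Of the 122 Flcn iΔEC cells 53 had no Prox1 UMI, 40 had 1 to 3 and 29 had 4 or more, against 35, 30 and 5 of the 70 control cells, and the median depth of the Flcn iΔEC groups was 14755, 21354 and 40067 UMIs. Nrp1 stood at 385, 351 and 159 CPM in these groups and at 608, 565 and 504 CPM in the control ones. Nrp2 had 181, 154 and 94.8 CPM, with 261, 320.0 and 356 CPM in the control. The cells with most Prox1 UMIs had the lowest neuropilin levels in the Flcn iΔEC library. Flt4 did not follow: it was 45.5, 27.9 and 28.6 CPM, and Vegfb 102, 119.8 and 99.7 CPM, while control cells without a Prox1 UMI had 16 CPM of Flt4 and 29.9 CPM of Vegfb. Pgf was 23.4, 15.3 and 53.1 CPM. A cell with more UMIs is more likely to show Prox1, and the part of depth in these differences was not tested.

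A cluster of 46 cells came from the Flcn iΔEC library alone and stayed unnamed. It was led by hemoglobin genes, H19 and Meg3, with 507 CPM of Prox1, 0.702 CPM of the lymphatic gene Pdpn and 11273 CPM summed over erythroid markers. Flt1 stood at 329 (299.6 to 359.9) CPM, against 289 CPM in VEC-like cells of the same library, while Nrp1 was nearly missing, with 7 UMIs (4.92 (1.98 to 10.1) CPM), 0.0172 (0.0069 to 0.0357) of the VEC-like level. Flt4 was 63.2 (50.8 to 77.7) CPM, 1.93 (1.44 to 2.59) times the VEC-like and 0.162 (0.13 to 0.2) of the LEC-like level. Kdr, Vegfb and Pgf stood at 192, 109 and 49.2 CPM. Against VEC-like cells 3 of 9 members passed the 2-fold ratio (9.66% of all genes) and against LEC-like cells 5 of 8 (9.89%). With 1 library, this cluster may be that library rather than a cell type. Proliferating endothelial cells were not divided by vessel type, with 85.9 and 338 CPM of Prox1, and were not compared between the libraries. They held 69.5 and 154 CPM of Flt4, 47.3 and 153 CPM of Vegfb and 6.69 and 44.2 CPM of Pgf.

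Other genes of the pathway were counted from a list of 68, put together with earlier results of these data known. In LEC-like cells 56 reached 50 counts, 5 were called higher and 6 lower in the Flcn iΔEC library (19.6%, against 10.2% of all genes), with a median log2 ratio of −0.23 against −0.18. In VEC-like cells 50 were tested, 3 higher and 5 lower (16% against 8.18%), with a median of −0.2 against −0.078. The sinus LEC-like cells had 5 higher and 5 lower of 45 (22.2% against 8.15%), HEV-like cells 5 higher and 0 lower of 56 (8.93% against 4.41%) and small arterial-like cells 4 and 0 of 50 (8% against 6.55%). Large artery-like cells had 2 and 0 of 45 (4.44% against 5.46%) and capillary-like cells 1 and 0 of 23 (4.35% against 7.89%), both below the share of all genes. Of the 4 genes listed for VEGF-C processing, 1 reached the count minimum in any type: Ctsd, which encodes the lysosomal protease cathepsin D, was called higher in 4 of 7 types, for example from 153 to 542 CPM in HEV-like cells, a ratio of 3.55 (3.21 to 3.92). The processing cofactor Ccbe1 and the ligand Vegfd were near 0 in LEC-like cells, with 0 and 0.126 CPM and 0.647 and 1.14 CPM.

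Among response genes, Angpt2, a ligand of the Tie2 receptor, was called higher in 4 of 5 types and went in LEC-like cells from 59.5 to 265 CPM, a ratio of 4.46 (3.62 to 5.55). Apln, the apelin peptide of sprouting cells, was lower in VEC-like cells with a ratio of 0.138 (0.066 to 0.269), as were the immediate early genes Nr4a1 and Nr4a2 with 0.461 (0.323 to 0.658) and 0.336 (0.229 to 0.488), whereas the Notch ligand Dll4 was higher with 2.38 (1.27 to 4.85). Nr4a1 was called higher in capillary-like cells at 2.12 (1.36 to 3.37). Dusp5, a phosphatase of ERK, was called higher in LEC-like and small arterial-like cells at 2.98 (2.08 to 4.4) and 2.65 (1.48 to 4.86) and lower in sinus LEC-like cells at 0.444 (0.319 to 0.617). Icam1 was called higher in large artery-like and small arterial-like cells, and Vcam1 lower in sinus LEC-like and VEC-like cells. Among genes listed as attenuators Rcan1, an inhibitor of calcineurin, was higher in 3 of 6 types, at 3.46 (2.32 to 5.34) in HEV-like cells. Dab2, an endocytic adaptor placed in that group of the list, was lower in LEC-like cells at 0.464 (0.41 to 0.525), and its effect on the signal was not tested. Spry4 had 1 UMI in control and 55 UMIs in Flcn iΔEC LEC-like cells, or 0.647 and 6.94 CPM, a ratio of 10.7 (1.85 to 432). Spred2 was lower in VEC-like cells at 0.303 (0.171 to 0.527) and Epn2 higher in HEV-like cells at 2.02 (1.55 to 2.65). Among partners Efnb2, which helps the internalisation of Flt4 and Kdr, went in LEC-like cells from 229.6 to 43.4 CPM, a ratio of 0.189 (0.163 to 0.22), and had a ratio of 0.429 (0.302 to 0.609) in sinus LEC-like cells. Plxna2 was lower at 0.409 (0.313 to 0.539) in LEC-like cells. Itgb3 had 3 and 102 UMIs there, or 1.94 and 12.9 CPM, a ratio of 6.64 (2.21 to 32.7). Itga9 was higher in HEV-like cells at 2.23 (1.41 to 3.63). Of the kinases and effectors, Nos3, the endothelial nitric oxide synthase, was lower in LEC-like cells at 0.419 (0.357 to 0.493) and the chaperone Hspb1 higher in sinus LEC-like and HEV-like cells at 7.7 (5.39 to 11.4) and 2.96 (2.57 to 3.42). In sinus LEC-like cells Pxn was higher at 2.19 (1.44 to 3.45) and Map2k1 lower at 0.483 (0.309 to 0.756). Upstream, the hypoxia factor Epas1 was lower in LEC-like and sinus LEC-like cells at 0.393 (0.321 to 0.483) and 0.429 (0.27 to 0.679), Egln3 lower in LEC-like cells at 0.488 (0.338 to 0.716), and Hif1a higher in large artery-like cells at 2.05 (1.57 to 2.71). Efnb2, Dll4, Apln and Vcam1 also served as markers for naming types.

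The genes most like each member in their level were looked up over 29 groups of type and library with at least 20 cells, by Pearson's r of log2(CPM + 10) among 4130 genes. Groups of a library share its depth and free RNA, so the values describe these libraries. Flt1 ran closest with Rapgef3 (0.97), Arhgef15 (0.967) and Clec14a (0.967), and Kdr with Tspan18 (0.963), Gng11 (0.963) and Shank3 (0.963). The nearest of Flt4 were Apold1 (0.941), Clca3a1 (0.92) and Hoxd9 (0.894). For Nrp1 they were Cd34 (0.932), Mcam (0.927) and Sparcl1 (0.92), and for Nrp2 Tspan18 (0.947), Cmtm3 (0.943) and Fscn1 (0.93). Tspan18 was among the 3 nearest of both Kdr and Nrp2. Vegfc went with Smad6 (0.95), Lims2 (0.931) and Fam181b (0.929). Vegfb had Tmem256 (0.932), Hexa (0.887) and Grn (0.877), and Pgf had Gdf15 (0.875) and Plat (0.831). Vegfa had no close match, with Nrip1 (0.741) at the top.

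In the GENCODE M21 annotation on GRCm38 the receptors lie on chromosome 5, with Flt1 at 147561604 to 147726011 and Kdr at 75932827 to 75978458, both on the minus strand, and on chromosome 11, with Flt4 at 49609263 to 49652739 on the plus strand. Nrp1 is on chromosome 8 at 128358604 to 128503363 and Nrp2 on chromosome 1 at 62703285 to 62818695, both on the plus strand. Of the ligands, Vegfa is on chromosome 17 at 46016993 to 46032369, Vegfb on chromosome 19 at 6982473 to 6987651 and Pgf on chromosome 12 at 85166635 to 85177790, all on the minus strand, and Vegfc on chromosome 8 at 54077606 to 54187096 on the plus strand. Nrp1 shares its strand with Mir1903 and Nrp2 with Gm37121, and reads in those stretches cannot be assigned to 1 gene with certainty.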

How the data were processed

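The authors aligned and counted the reads with Cell Ranger 3.0 on mm10 and deposited filtered matrices of raw UMI counts per gene and cell, 1 per library, which are the only values used. Cells with at least 2 UMIs of Cdh5 and, separately, all cells were clustered in Seurat 5.3.0 (R 4.3.3) after integration of the libraries, with 2000 variable features, 30 dimensions and resolution 0.8. The 9 members were kept out of the features, so that types were not drawn by the genes described. Doublets were called with Scrublet in scanpy 1.11.5 (142 control and 37 Flcn iΔEC cells) and kept, and leaving them out was an alternative. Another 94 and 124 cells with fewer than 2 Cdh5 UMIs lay in endothelial clusters and were not used.

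Counts were summed over the cells of a type in each library and divided by all UMIs of these cells (CPM). Intervals are exact 95% Poisson (levels), conditional binomial (ratios) and Clopper-Pearson (shares) intervals, and they cover counting error only. A gene with at least 50 counts over both libraries was called when its CPM differed at least 2-fold with an interval that excludes 1. With 1 library per condition there is no replicate and no test, and p-values are not given. The call rule was also run on simulated Poisson counts at the depth of VEC-like cells. Those counts hold no spread between cells or mice, so the run does not measure how often such spread gives a call. For shares of cells with a UMI, each cell was thinned to 2000 UMIs. All 9 members were compared in every type, and the text gives those the results turn on. List genes were named where they were called, and Ccbe1 and Vegfd, which were not, were named after their values were seen. The members, marker lists, pathway list and comparisons were chosen with earlier results of these data known. The 3 genes closest in pattern to each member were named, except 1 that is not reported here. Gene positions are from GENCODE M21, promoter windows from RefSeq (GRCm38.p6). Python 3.11.15 was used with numpy 2.4.6, scipy 1.17.1, pandas 2.3.3 and matplotlib 3.10.9.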

Additional observations from a re-analysis of the deposited data

How the results depend on the processing

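With 1 library per condition, depth limits only counting error, and the spread between animals is unknown. No paired analysis was possible because each condition has 1 library and the results come from no test. Of the 17 pairs of member and type called between libraries, 10 kept the call under every alternative run, and none reversed. A call was kept here if it passed 2-fold with an interval that excludes 1. The count minimum was not applied again, and means over cells and equal weights, which had no interval, were judged by size alone. The small arterial-like group was not found with at least 1 Cdh5 UMI or at resolution 0.4, so those alternatives gave no value for it. Where a value below moved, the cause was not tested.

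Values are log2 ratios unless stated. Kdr in capillary-like over VEC-like cells (control, Flcn iΔEC) was 1.18 and 2.21 under limits on depth (1000 UMIs or more) and mitochondrial share (10% or less), 0.97 and 1.95 with at least 1 Cdh5 UMI, 0.47 and 1.05 with at least 4, 1.15 and 2.34 without integration, 0.86 and 1.73 at resolution 0.4 and 1.2 and 2.21 at resolution 1.6, and 3.09 in the Flcn iΔEC library as a mean over cells. Pgf in small arterial-like cells was 2.57 with the UMI and mitochondrial limits, 2.57 with at least 4 Cdh5 UMIs, 3.11 without integration and 2.78 at resolution 1.6. Flt4 in control LEC-like cells was 333 CPM without called doublets and 485 CPM without integration, and without mitochondrial, ribosomal protein and hemoglobin genes 457 and 509 CPM in the control and Flcn iΔEC libraries.

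Without integration, Flt4 in LEC-like over VEC-like control cells was 5.74, Nrp2 0.81, Vegfc in large artery-like over VEC-like control cells 2.10, and the library ratios were −0.85 (Nrp1, VEC-like), 0.45 (Nrp1, HEV-like), −1.27 (Nrp2, LEC-like), −0.99 (Vegfc, VEC-like) and 2.64 (Pgf, LEC-like). Nrp1 in HEV-like cells was 0.35 at resolution 0.4. As a mean over cells, Nrp1 in VEC-like cells was −0.77, Nrp2 −1.14 in LEC-like and −0.86 in VEC-like cells, and Nrp2 in LEC-like over VEC-like Flcn iΔEC cells 0.40. With LEC-like clusters at equal weights, Nrp2 in LEC-like cells was −0.76.

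Reversed library ratios in capillary-like cells were Kdr −0.012 and Nrp1 −0.035 with at least 1 Cdh5 UMI, Flt1 −0.52, Kdr −0.39 and Flt4 −0.12 with at least 4, and Flt1 −0.045, Kdr −0.11 and Nrp1 −0.23 at resolution 0.4. In small arterial-like cells Flt1 was 0.25 and Kdr 0.15 with at least 4 Cdh5 UMIs and Vegfc 0.021 as a mean over cells, and Kdr in HEV-like cells was −0.057 without integration. Reversed ratios of capillary-like over VEC-like cells were Vegfc in the Flcn iΔEC library at −0.61 with at least 4 Cdh5 UMIs and −0.075 without integration, Vegfc in the control at 0.017 at resolution 0.4, and Nrp2 in the control at 0.0028 without integration.

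Shares of cells with a UMI grew with depth. At 1000 UMIs, at 5000 UMIs and unthinned, Pgf in Flcn iΔEC LEC-like cells was 8.05%, 25.2% and 64.1%, Nrp1 in VEC-like cells 34.3%, 80.6% and 94.3% in the control and 26.2%, 69.5% and 91.0% in the Flcn iΔEC library, and Vegfb in Flcn iΔEC VEC-like cells 12.3%, 39.0% and 81.1%. Flt4 in Flcn iΔEC VEC-like cells was 14.4% at 5000 UMIs and 51.6% unthinned. Unthinned control shares were 11.5% (Pgf, LEC-like), 21.4% (Flt4, VEC-like) and 30% (Vegfb, VEC-like). At a 1.5-fold limit, 23 of 56 pathway list genes were called in LEC-like and 15 of 50 in VEC-like cells, against 24.2% and 20.4% of all genes.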
